A study of Homo sapiens with 38 samples.

Results

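Retinoic acid (RA) at 1 µM combined with CT at 4 µM, the condition that the design text assigns to spinal cord, was compared here with CT at 2 µM, a dose within the range it assigns to brain regions up to the hindbrain. The comparison uses 4 of the 38 libraries of the series: the 2 of the condition CT4.0RA and the 2 of CT2.0 at day 4, chosen by the condition and day that name their columns in the deposited table. All 4 came from wild type cells of H9, a long-established line of human embryonic stem cells, that were undergoing neural induction, and both groups received CT. CT is the agent used to activate WNT signalling, and the labels leave its name unexpanded. The 2 groups differ in both the CT dose and RA, so these 4 libraries alone cannot tell apart the 2 agents. CT4.0 without RA at day 4 and the same pair of conditions at day 8 are therefore given beside the comparison, with 2 libraries in each group. H9 is 1 cell line, and the labels call the libraries biological replicates without saying whether they were separate differentiations. The p-values therefore measure only the spread between libraries within groups, estimated jointly over all 38 libraries in 19 groups.

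Neural progenitors acquire their position along the head to tail axis from graded WNT, FGF and RA signals. RA enters cells, is bound by cytoplasmic carriers such as CRABP1 and CRABP2, and acts through nuclear receptors of the RAR and RXR families that bind paired hexamer sequences in DNA. CYP26 enzymes degrade it. HOX genes lie in 4 clusters, and their numbered paralog groups are used in order from the hindbrain (low numbers) to the caudal spinal cord (high numbers). EGR2 marks rhombomeres of the hindbrain, and CDX genes are homeobox regulators of the caudal axis that act upstream of trunk HOX genes.

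Values are TPM, a relative transcript level corrected for transcript length. A change is the difference of group means of log2(TPM + 1), CT4.0RA less CT2.0, given with its SE from limma, and on this scale the change of a weakly expressed gene is understated. Calls of higher or lower were made where the Benjamini-Hochberg adjusted p was under 0.05 and the change was at least 1 in size. Of 28221 genes tested, 735 were called higher (2.60%) and 1690 lower (5.99%), together 8.59%. Each count of list members called between these groups is to be read beside these shares. With TMM scaling of the TPM values the split was 1086 higher and 1231 lower, so that 46.9% of calls were higher against 30.3% without it. The median change of all genes tested was -0.11 without this scaling and 0.00 with it. Ribosomal protein genes (81 genes) held 27.3% of TPM in both CT2.0 libraries and 29.1% and 29.15% in the CT4.0RA libraries, and mitochondrial genes (37) held 6.91% and 7.85% against 9.78% and 10.1%. The number of genes at 1 TPM or more was 18186 and 18371 in CT2.0 and 17393 and 17025 in CT4.0RA. The part of these shares in the results was not tested. The correlation of log2(TPM + 1) over genes was 0.9642 between the CT2.0 libraries and 0.9724 between those of CT4.0RA. TPM keeps no sequencing depth, so no counting interval can be given. Fewer cells of a type and less RNA per cell cannot be told apart in these bulk samples.

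The 12 largest increases among protein-coding genes included CDX1, FABP1, NPPC, CA4, HOXB6, ONECUT1, NEUROG2, HOXD4, MSX1, HOXB9 and GFRA1. They include a CDX gene, 3 HOX genes and NEUROG2, a proneural transcription factor. The 12 largest decreases were in CRABP1, PAPLN, DLK1, GALP, MYBPC1, EGR2, CALB2, SOX1, CDH11, EFCC1, GRIK3 and ASGR1. FABP1, a fatty acid binding protein best known from liver, was listed at 0 in both CT2.0 and both CT4.0 libraries and stood at 133 and 136 TPM in CT4.0RA (7.08 ± 0.17, adjusted p = 9.31e-18). NPPC, the precursor of C-type natriuretic peptide, was 1.59 and 1.92 TPM in CT2.0 and 180 and 202 TPM in CT4.0RA (6.12 ± 0.29, adjusted p = 4.13e-13). In CT4.0 without RA, NPPC was 1.63 and 1.5003 TPM at day 4, and in CT2.0 at day 8 it was 52.1 and 44.6 TPM. ONECUT1, a homeobox transcription factor, was 0.373 and 1.09 TPM in CT2.0, 0.171 and 0.0342 in CT4.0, and 74.8 and 68.6 in CT4.0RA (5.42 ± 0.36, adjusted p = 8.87e-11).

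Among the decreases, CRABP1, the cellular RA binding protein, was the highest. It stood at 7391 and 10434 TPM in CT2.0 and at 3.59 and 4.08 TPM in CT4.0RA (-10.83 ± 0.45, adjusted p = 3.77e-14). CT4.0 without RA held 22.6 and 18.3 TPM, so CRABP1 was already low at the higher CT dose. PAPLN, which encodes an extracellular matrix protein, was 440 and 299 TPM in CT2.0, 2.11 and 1.69 in CT4.0, and 2.30 and 1.42 in CT4.0RA (-7.01 ± 0.31, adjusted p = 9.2e-14). MYBPC1, known as a muscle myosin binding protein, was 68.5 and 77.5 TPM in CT2.0, 0 and 0.0218 in CT4.0, and listed at 0 in both CT4.0RA libraries (-6.21 ± 0.16, adjusted p = 3.21e-17). CDH11, a cadherin, was 98.6 and 60.8 TPM in CT2.0, 46.7 and 61.3 in CT4.0, and 0.583 and 1.19 in CT4.0RA (-5.40 ± 0.29, adjusted p = 3.55e-12). For each of these 7 genes the 2 groups were far apart in every library. That follows from the choice, since they were picked among the largest called changes without overlap between groups.

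**Figure D1:**
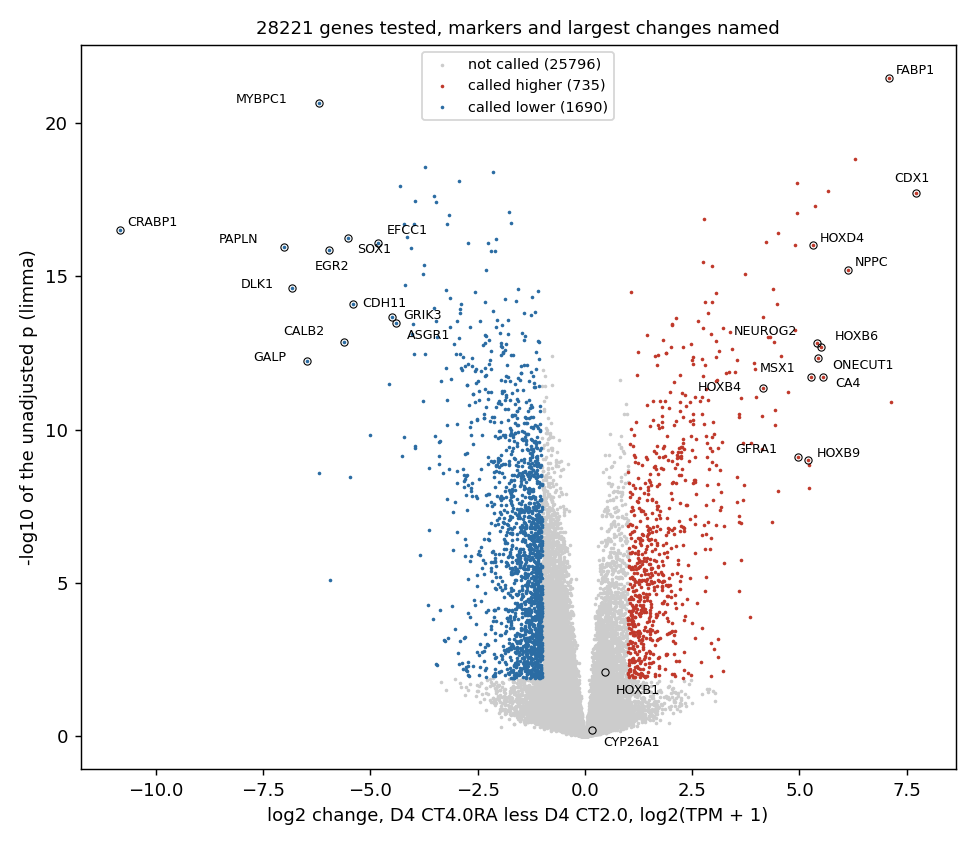
Log2 change of CT4.0RA less CT2.0 at day 4 (x axis) against -log10 of the unadjusted limma p (y axis) for 28221 genes, with called genes in colour and the markers and the largest changes of the text named. CRABP1 lies farthest left at -10.83 and CDX1 farthest right at 7.71, while HOXB1 and CYP26A1 lie near 0.

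The 5 markers for this comparison did not move together. CDX1 on chromosome 5 (150166795 to 150184558 of hg38, plus strand) was 0.0636 and 0.382 TPM in CT2.0 and 249 and 257 TPM in CT4.0RA (7.71 ± 0.28, adjusted p = 5.44e-15). HOXB4 on chromosome 17 (48575513 to 48580111, minus strand) was 0.108 and 1.85 TPM in CT2.0 and 31.4 and 29.3 TPM in CT4.0RA (4.14 ± 0.30, adjusted p = 5.43e-10). EGR2 on chromosome 10 (62811996 to 62919900, minus strand) was 69.9 and 53.9 TPM in CT2.0 and listed at 0 in both CT4.0RA libraries (-5.96 ± 0.26, adjusted p = 1.09e-13). For these 3 genes the groups did not overlap, with the high group of each well clear of the low one. Of all 28221 genes tested, 4836 did not overlap in the higher direction and 10442 in the lower, so non-overlap alone is common.

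HOXB1 on chromosome 17 (48528526 to 48531001, minus strand), a paralog group 1 gene used in the hindbrain, was 68.2 and 105 TPM in CT2.0 and 118 in both CT4.0RA libraries (0.47 ± 0.16, adjusted p = 0.0351), which is under the required size of change. Its change was 0.16 without replicate 1 of CT2.0 and 0.78 without replicate 2. CYP26A1 on chromosome 10 (93073475 to 93077890, plus strand) was 143 and 117 TPM in CT2.0 and 93.8 and 225 TPM in CT4.0RA (0.17 ± 0.33, adjusted p = 0.842). Its CT4.0RA libraries lay on either side of the CT2.0 libraries, and its change was 0.79 without replicate 1 of CT4.0RA and -0.46 without replicate 2. The hindbrain description of CT2.0 comes from the dose range in the design text. Of other HOX genes used in the hindbrain, HOXA2 was 21.7 and 23.2 TPM and HOXB2 59.1 and 76.7 TPM in CT2.0. HOXB1, HOXB2 and HOXA2 were not confined to CT2.0, with means of 34.9, 45.2 and 13.6 TPM in CT4.0 without RA. HOXA2 also had a mean of 21.7 TPM in CT1.0. In CT4.0RA, HOXB1 and HOXB2 were also at 33.5 TPM or more while EGR2 was at 0.

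Of the 39 HOX genes listed, 28 passed the filter on low values, and 15 of these were called higher, 1 lower and 12 not. A gene that passes the filter only through a group where it is high had to differ from the rest, so these counts describe the libraries and are no support for a pattern. In paralog groups 1 to 3, used in the hindbrain and its border with the spinal cord, 5 of 8 were called higher, among them HOXD1, HOXA3, HOXB3 and HOXD3, and HOXA2 was called lower. In groups 4 to 6, used in cervical and brachial levels, 7 of 10 were called higher, and in groups 7 to 9, used in thoracic levels, 3 of 8 tested. Of groups 10 to 13, used in lumbar and more caudal levels, 2 of 12 genes passed the filter and neither was called or reached an unadjusted p under 0.05 in limma. The median change was 2.03 in groups 1 to 3, 1.86 in groups 4 to 6 and 0.42 in groups 7 to 9, beside -0.11 over all genes tested.

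HOXA2 is the single HOX gene that was called lower. It was 21.7 and 23.2 TPM in CT2.0, 12.5 and 14.6 in CT4.0 and 1.41 and 2.27 in CT4.0RA (-3.06 ± 0.19, adjusted p = 3.82e-11). HOXB3 moved most in groups 1 to 3, from 13.6 and 34.5 TPM in CT2.0 to 356 and 367 in CT4.0RA (4.00 ± 0.30, adjusted p = 9.65e-10). HOXD1 was listed at 0 in CT2.0 and was 6.06 and 5.47 TPM in CT4.0RA (2.76 ± 0.13, adjusted p = 2.52e-13). Its level in CT4.0 was 0.224 and 0.258 TPM. HOXB2, at 33.5 and 37.8 TPM in CT4.0RA, was below both CT2.0 libraries without reaching the required size of change (-0.90 ± 0.14, adjusted p = 3.22e-05).

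The clusters had unequal counts. All 7 HOXB genes of groups 3 to 9 were called higher than in CT2.0, with a median change of 4.12. The counts were 3 of 6 for HOXA (median 0.92), 1 of 5 for HOXC (median 0.00) and 2 of 3 tested for HOXD (median 1.73). Summed over groups 3 to 9, HOXB genes held 15.3 and 46.1 TPM in CT2.0 and 592 and 711 in CT4.0RA. HOXA genes held 0.736 and 3.34 TPM in CT2.0 and 16.2 and 17.7 in CT4.0RA, and HOXC genes 0.808 and 1.61 against 5.99 and 10.97. HOXD genes held 0.182 and 0.685 TPM in CT2.0 and 60.65 and 54.3 in CT4.0RA. HOXB genes thus made up most of the HOX transcripts of these groups in CT2.0 as well as in CT4.0RA.

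Comparisons of CT4.0 with either group share libraries with the main comparison, so their values are set side by side only. At CT4.0 the same sums were 1467 and 1708 TPM for HOXB, 419 and 647 for HOXA, 385 and 532 for HOXC, and 11.98 and 23.9 for HOXD, whose sum was the only one of the 4 that was higher in CT4.0RA. All 6 HOXA, 7 HOXB and 5 HOXC genes of groups 3 to 9 were called lower in CT4.0RA than in CT4.0, where 4.07% of all genes were called lower and 1.77% higher, together 5.84%. The median change between those groups was -4.07 for HOXA, -1.18 for HOXB and -4.98 for HOXC. Between CT4.0 and CT2.0 all of them were called higher, against 2.80% of all genes higher and 2.16% lower, together 4.96%. HOXA7 was listed at 0 in both CT2.0 libraries and was 225 and 338 TPM in CT4.0 and 0 and 1.09 in CT4.0RA. HOXC9 was listed at 0 in both CT2.0 and both CT4.0RA libraries and was 15.8 and 38.7 TPM in CT4.0. HOXD4 had a different order, with 0.182 and 0.656 TPM in CT2.0, 10.2 and 22.5 in CT4.0 and 58.7 and 50.8 in CT4.0RA (5.31 ± 0.23 against CT2.0, adjusted p = 8.25e-14).

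**Figure D2:**
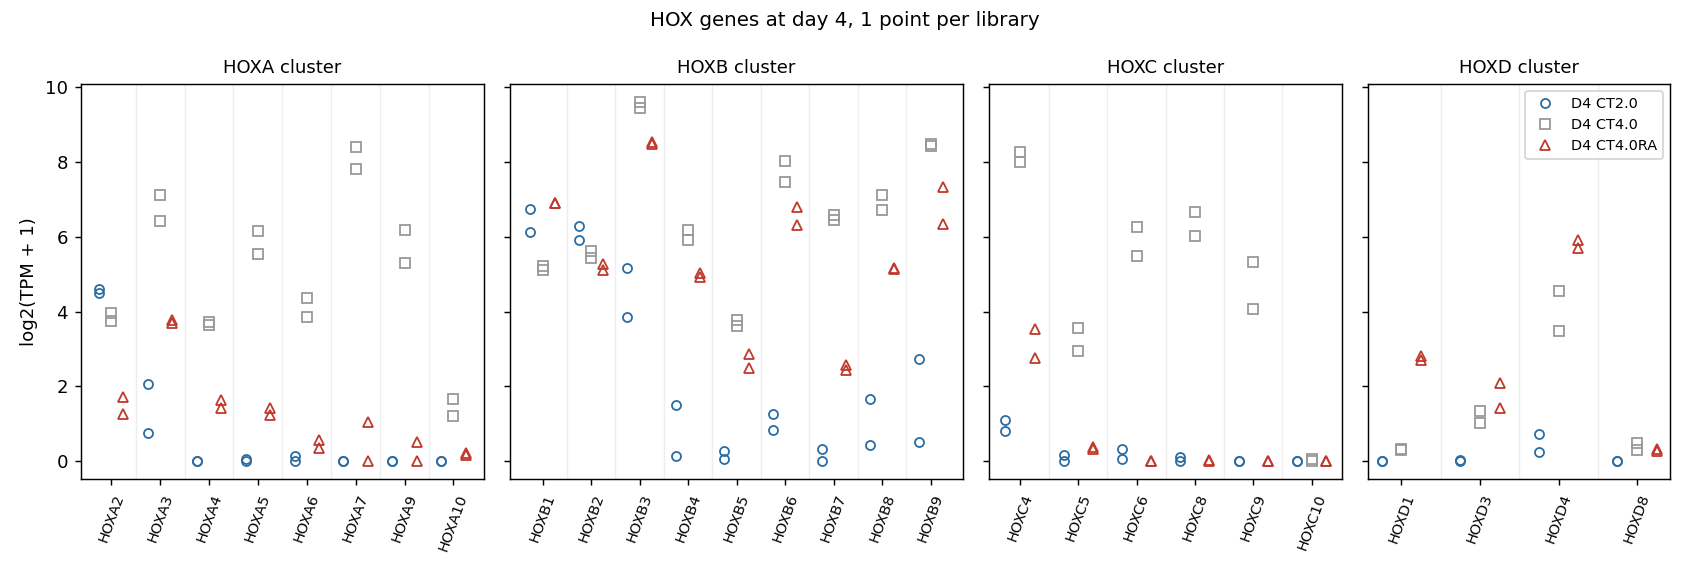
Log2(TPM + 1) of tested HOX genes by cluster and paralog number at day 4, with 1 point per library for CT2.0, CT4.0 and CT4.0RA. HOXB genes of groups 3 to 9 lie between CT2.0 and CT4.0 in CT4.0RA, while HOXA and HOXC genes of groups 5 to 9 range from 0 to 1.71 TPM there.

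The CT2.0 libraries differed from one another in these genes. Of the 22 HOX genes of groups 3 to 9, 15 were higher in replicate 2 than in replicate 1, 1 was lower and 6 were listed at 0 in both. HOXB9 was 0.444 TPM in replicate 1 and 5.67 in replicate 2, against 79.8 and 160.6 in CT4.0RA (5.20 ± 0.51, adjusted p = 5.19e-08). Both CT2.0 libraries remained below both CT4.0RA libraries for all 15 HOX genes called higher, a description of genes already selected by their call. With only the 4 libraries in the fit, 7 HOX genes were called higher and HOXA2 lower, and HOXB4 (adjusted p = 0.0671), HOXB3 (0.0648), HOXB8 (0.0601) and HOXB9 (0.0998) no longer passed. In the annotation the HOXB3 gene (48548870 to 48604912) spans HOXB4 and HOXB5 and overlaps HOXB6, and the HOXB7 gene (48607227 to 48633572) spans HOXB8 and HOXB9. How reads were divided among these genes and their antisense neighbours is not given in the sources used here, so their separate levels are uncertain.

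HOX proteins bind DNA together with PBX, MEIS and PKNOX partners. Of 9 such genes, 1 was called higher, PBX3 and MEIS3 were called lower, and 6 were not called. MEIS3 was 56.9 and 67.4 TPM in CT2.0 and 4.998 and 4.02 in CT4.0RA (-3.52 ± 0.13, adjusted p = 5.98e-15). MEIS2 differed little between the 2 groups, at 99.2 and 108 TPM in CT2.0 and 96.9 and 82.5 in CT4.0RA (-0.21 ± 0.35, adjusted p = 0.787), but was 6.63 and 3.11 TPM in CT4.0 without RA.

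Genes of retinoid handling were split. Of 16 tested enzymes and carriers, 4 were called higher, among them DHRS3, BCO1 and CRABP2, 2 lower (CRABP1 and CYP26B1) and 10 not, with a median change of 0.30. CRABP2, which delivers RA to nuclear receptors, was 422 and 475 TPM in CT2.0 and 1911 and 1677 in CT4.0RA (2.00 ± 0.13, adjusted p = 4.63e-11). The 2 cellular RA binding proteins therefore moved in opposite directions, and CRABP1 exceeded CRABP2 in CT2.0 while CRABP2 exceeded CRABP1 in CT4.0RA. DHRS3, a reductase that returns retinal to retinol, was 0.576 and 0.309 TPM in CT2.0 and 24.8 and 30.8 in CT4.0RA (4.32 ± 0.26, adjusted p = 2.53e-11). CT4.0 without RA held 9.88 and 7.07 TPM of DHRS3, so part of its rise was present at that dose alone. BCO1, which cleaves beta-carotene to retinal, was 0.0399 and 0.0409 TPM in CT2.0, 0.0396 and 0 in CT4.0 and 13.8 and 11.7 in CT4.0RA (3.72 ± 0.18, adjusted p = 5.16e-13). ALDH1A1, ALDH1A2 and ALDH1A3, the enzymes that make RA, were at 1.43 TPM or less in all 4 libraries.

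The degrading enzymes did not share a direction. CYP26A1 was at 0.0531 and 0.226 TPM in CT4.0 without RA, and thus high in both CT2.0, where no RA was added, and CT4.0RA. CYP26B1 was 6.24 and 7.23 TPM in CT2.0 and 0.255 and 0.0488 in CT4.0RA (-2.75 ± 0.26, adjusted p = 3.35e-08). CYP26C1 was at 0.304 TPM or less in the 4 libraries. STRA6, the membrane receptor for retinol uptake, was 12.2 and 17.8 TPM in CT2.0 and 22.5 and 21.0 in CT4.0RA (0.53 ± 0.20, adjusted p = 0.0581), and 94.5 and 142 TPM in CT4.0.

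Of 10 receptors and coregulators, RARB was called higher and 2 lower, among them RXRA. With TMM scaling the change of RXRA (-0.80) was under 1 in size, and leaving out replicate 1 of CT2.0 or replicate 2 of CT4.0RA also took RXRA under it (-0.99 and -0.89). RARB, a receptor gene known to be induced by RA, was 3.73 and 4.75 TPM in CT2.0, 0.390 and 0.336 in CT4.0 and 22.5 and 22.7 in CT4.0RA (2.18 ± 0.21, adjusted p = 3.17e-08). RARG was 13.6 and 9.42 TPM in CT2.0 and 23.5 and 23.2 in CT4.0RA (0.99 ± 0.19, adjusted p = 0.000389), just under the required size. RARA was 17.6 and 22.8 TPM in CT2.0 and 20.5 and 15.9 in CT4.0RA (-0.14 ± 0.16, adjusted p = 0.635).

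Promoters from RefSeq (GRCh38.p14, 250 bases before to 50 after a start) were matched by symbol for 440 of the 735 genes called higher and 952 of the 1690 called lower. They were searched on both strands for 2 hexamers in the same orientation, each of them AGGTCA or AGTTCA, or the form with G first, GGGTCA or GGTTCA, with 5, 2 or 1 bases between. With 5 bases between, a match was found in 2 promoters of genes called higher (0.455%), in 0 of those called lower and in 22 of all 27305 promoters (0.0806%). With 2 bases between it was in 1 of the genes called higher, 1 of those called lower and 12 of all, and with 1 base between in 0, 1 and 36. Of 10 retinoid and HOX genes called higher that had a promoter in the table, 1 held a match. That gene is RARB, on chromosome 3, and its window is printed because it was the 1 of these 10 that held a match. The window is chr3:25428013-25428312, plus strand, in which capitals mark the 2 hexamers of the repeat with 5 bases between, beginning 53 bases before the start.
RARB: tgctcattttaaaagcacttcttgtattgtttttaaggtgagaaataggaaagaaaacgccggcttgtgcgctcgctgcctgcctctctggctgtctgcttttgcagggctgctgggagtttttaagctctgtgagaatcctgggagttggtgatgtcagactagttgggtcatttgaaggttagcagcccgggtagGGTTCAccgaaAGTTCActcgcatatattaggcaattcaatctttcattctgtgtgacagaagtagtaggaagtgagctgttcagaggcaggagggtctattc
This start lies inside the annotated span of the gene (25174332 to 25597932). A match is a description of letters and was not tested as a binding site.

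**Figure D3:**
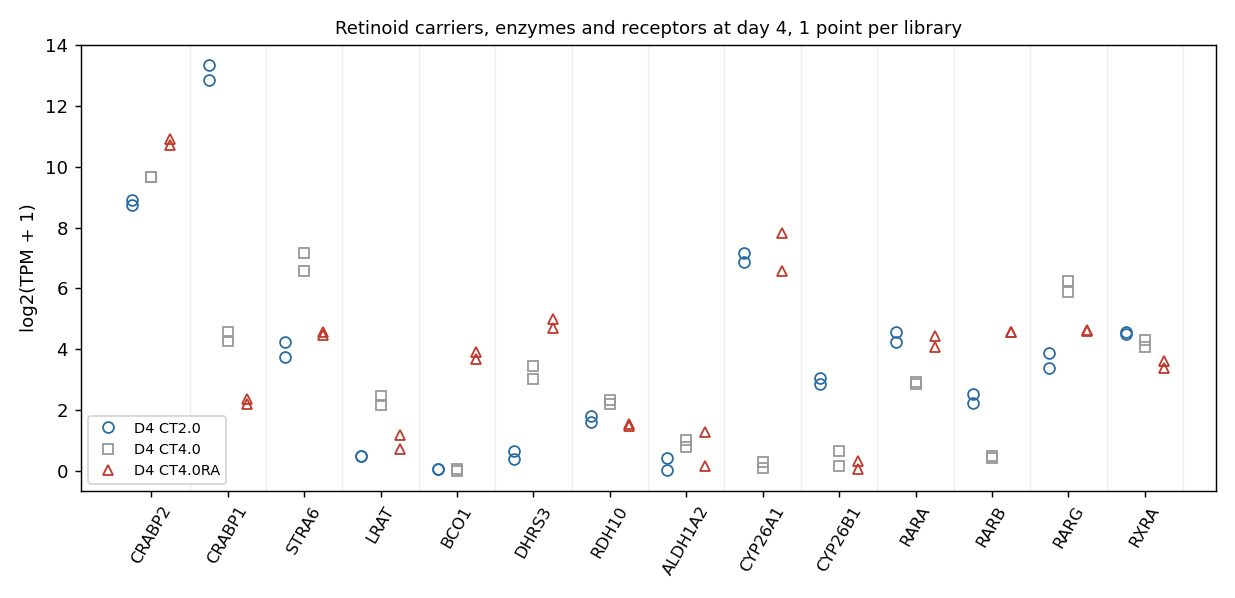
Log2(TPM + 1) of genes of RA handling and reception at day 4, 1 point per library for CT2.0, CT4.0 and CT4.0RA. DHRS3, BCO1 and RARB are highest in CT4.0RA, CRABP1 is highest in CT2.0, and CYP26A1 is high in both but at 0.226 TPM or less in CT4.0.

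Genes of hindbrain segmentation were mostly lower than in CT2.0. Of 16 tested, 10 were called lower, 2 higher and 4 not, with a median change of -1.63. Over all genes tested, 5.99% were called lower and 2.60% higher. In CT4.0 against CT2.0, 10 of the 16 were called lower and 0 higher (2.16% and 2.80% of all genes). In CT4.0RA against CT4.0, 5 were called higher and 2 lower (1.77% and 4.07% of all genes). Beside EGR2 and FGF3, the lower group held the Eph and ephrin genes EPHA4, EPHA7, EPHB2, EFNB2 and EFNB3, which help to keep segment borders sharp. NR2F2, a nuclear receptor, was 29.1 and 23.9 TPM in CT2.0, 0.0416 and 0.150 in CT4.0 and 1.37 and 1.68 in CT4.0RA (-3.44 ± 0.21 against CT2.0, adjusted p = 2.64e-11). IRX3 was 14.8 and 26.8 TPM in CT2.0 and 16.0 and 17.0 in CT4.0RA (-0.27 ± 0.34, adjusted p = 0.679).

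Among 20 tested midbrain and isthmus genes, 4 were called higher (SPRY1, FGF18, IRX1 and FGF8), 3 lower (PAX2, FGF17 and GBX2) and 13 not. OTX2 and EN1, which define forebrain to midbrain and isthmus, were at 0.354 TPM or less in all 4 libraries. FGF17, an isthmic FGF ligand, was 4.69 and 6.43 TPM in CT2.0, 239 and 288 in CT4.0, and 0.491 and 0.516 in CT4.0RA (-2.11 ± 0.21, adjusted p = 5.4e-08). FGF18 differed in the other direction between CT2.0 and CT4.0RA, with 0.105 and 0 TPM in CT2.0 and 7.35 and 8.30 in CT4.0RA (3.07 ± 0.22, adjusted p = 3.32e-10). In CT4.0 it was 0.110 and 0.288 TPM. Of 13 tested forebrain genes, 1 was called higher (FEZF2) and 1 lower (SOX21), while without replicate 2 of CT2.0 the calls numbered 5. FEZF2, a zinc finger gene of the rostral forebrain, was 0.846 and 0.168 TPM in CT2.0 and 33.5 and 28.5 in CT4.0RA (4.44 ± 0.36, adjusted p = 2.25e-09). SIX3 and RAX did not share this rise and were at 0.229 TPM or less in all 4 libraries. HESX1 was not called (0.19 ± 0.30, adjusted p = 0.757). FOXD1 was 0.0845 and 0.161 TPM in CT2.0 and 1.25 and 1.10 in CT4.0RA (0.95 ± 0.27, adjusted p = 0.0092), just under the required size. SOX21 was 107 and 103 TPM in CT2.0 and 22.9 and 22.6 in CT4.0RA (-2.16 ± 0.26, adjusted p = 9.2e-07).

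Axial progenitors of the tail bud combine CDX genes with TBXT and NKX1-2. Of 17 tested genes of this list, 4 were called higher (CDX1, CDX2, DLL3 and NKX1-2), 1 lower (WNT8A) and 12 not, with a median change of -0.06. CDX2 was 0.590 and 1.41 TPM in CT2.0, 164 and 193 in CT4.0 and 7.72 and 8.09 in CT4.0RA (2.19 ± 0.20, adjusted p = 2.43e-08). CDX1 had the reverse order of these 2 CT4.0 conditions, at 10.53 and 22.0 TPM in CT4.0 against 249 and 257 with RA. CDX4 was listed at 0 in both CT2.0 and both CT4.0RA libraries and was 1.06 and 4.31 TPM in CT4.0. TBXT, listed as T in the table, was at 0.272 TPM or less in the 4 libraries and 31.3 and 41.3 TPM in CT4.0, and NKX1-2 was 1.69 and 2.34 TPM in CT4.0RA against 142 and 171 in CT4.0. The CT4.0RA libraries thus shared high CDX1 and HOXB values with no more than 0.272 TPM of TBXT.

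Of 20 tested canonical WNT targets, 6 were called lower, 1 higher (LGR5) and 13 not, with a median change of -0.60, and with TMM scaling 3 were called lower. FZD7, a WNT receptor, was 152 and 143 TPM in CT2.0, 29.1 and 24.2 in CT4.0 and 33.7 and 23.8 in CT4.0RA (-2.33 ± 0.15, adjusted p = 3.61e-11), so it was already low at the higher CT dose. LGR5, a receptor for R-spondins, was 0.640 and 0.872 TPM in CT2.0, 2.00 and 2.52 in CT4.0 and 13.01 and 12.4 in CT4.0RA (2.97 ± 0.27, adjusted p = 1.21e-08). AXIN2, the negative feedback gene of the pathway, was 60.5 and 53.01 TPM in CT2.0, 103 and 112 in CT4.0 and 37.6 and 36.3 in CT4.0RA (-0.60 ± 0.24, adjusted p = 0.0714). SP5 was 26.3 and 49.9 TPM in CT2.0, 224 and 228 in CT4.0 and 17.8 and 25.4 in CT4.0RA (-0.74 ± 0.52, adjusted p = 0.365). For both genes the libraries with the higher CT dose and RA lay at or below the CT2.0 libraries, and those with that dose alone lay above.

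Of 14 tested WNT ligands, 3 were called lower (WNT8A, WNT3 and WNT9B) and none higher in limma, where 0 had an unadjusted p under 0.05 in the higher direction and 4 in the lower. WNT9B rests on low values, at 1.73 and 0.815 TPM in CT2.0 (-1.02 ± 0.35, adjusted p = 0.0369). It lost its call without the filter on low values and without replicate 1 of CT2.0 (-0.73) or either replicate of CT4.0RA (-1.003 and -1.04). WNT5B was 9.11 and 10.2 TPM in CT2.0, 125 and 168 in CT4.0 and 5.68 and 5.78 in CT4.0RA (-0.66 ± 0.22, adjusted p = 0.033). Of 10 tested secreted antagonists, SFRP1, FRZB and DKK3 were called lower and SOSTDC1 higher. SFRP1 was 283 and 230 TPM in CT2.0, 39.7 and 33.9 in CT4.0 and 31.9 and 33.6 in CT4.0RA (-2.93 ± 0.10, adjusted p = 3.56e-15).

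Of 21 tested FGF ligands and genes that FGF and ERK signalling induces as feedback, 10 were called higher, 2 lower (FGF3 and FGF17) and 9 not, with a median change of 0.95. The shares over all genes tested were 2.60% higher and 5.99% lower. ETV4, an ETS factor downstream of FGF, was 1.27 and 1.15 TPM in CT2.0 and 40.1 and 59.1 in CT4.0RA (4.49 ± 0.19, adjusted p = 4.71e-14). DUSP6, a phosphatase of ERK, was 22.6 and 18.5 TPM in CT2.0 and 238 and 280 in CT4.0RA (3.59 ± 0.29, adjusted p = 2.85e-09). SPRY1, an inhibitor of receptor tyrosine kinase signalling, was 3.65 and 3.49 TPM in CT2.0 and 32.9 and 41.4 in CT4.0RA (3.05 ± 0.16, adjusted p = 1.88e-12). These 3 genes stood at like levels in CT4.0 without RA, at 34.9 and 43.1, 242 and 231, and 41.6 and 42.2 TPM. FGF8 was 7.94 and 4.38 TPM in CT2.0, 173 and 229 in CT4.0 and 16.8 and 21.8 in CT4.0RA (1.54 ± 0.27, adjusted p = 0.000106). ETV5 and IL17RD, also called higher than in CT2.0, followed FGF8 in being far above both groups at CT4.0.

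NOTCH pathway genes showed no common direction: 3 of 19 were called higher (DLL3, HES5 and DLL4), 3 lower (JAG1, NOTCH3 and HES3) and 13 not. HES5, a NOTCH target of neural progenitors, was 22.3 and 19.0 TPM in CT2.0, 0.0565 and 0.216 in CT4.0 and 58.7 and 61.6 in CT4.0RA (1.504 ± 0.33, adjusted p = 0.00112). With a pseudocount of 0.1 its adjusted p was 0.0546. DLL1, a NOTCH ligand, was 72.9 and 67.3 TPM in CT2.0 and 62.0 and 53.04 in CT4.0RA (-0.29 ± 0.32, adjusted p = 0.617), with 10.02 and 10.9 in CT4.0.

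Neural progenitor genes moved in both directions, with 7 of 17 called lower, 4 higher and 6 not. SOX1, an early neuroectoderm factor, was 91.4 and 68.6 TPM in CT2.0, 0.294 and 0.0684 in CT4.0 and 0.996 and 0.521 in CT4.0RA (-5.52 ± 0.23, adjusted p = 6.33e-14). SOX2, its relative, was 323 and 329 TPM in CT2.0, 200 and 188 in CT4.0 and 190 and 176 in CT4.0RA (-0.83 ± 0.10, adjusted p = 1.02e-06), under the required size. PAX6, a homeobox gene of neural progenitors, was 25.3 and 33.4 TPM in CT2.0, 1.78 and 1.197 in CT4.0 and 168 and 167 in CT4.0RA (2.49 ± 0.16, adjusted p = 9.69e-11). OLIG3, a factor of dorsal hindbrain and spinal cord progenitors, was 5.75 and 2.75 TPM in CT2.0 and 45.0 and 43.6 in CT4.0RA (3.17 ± 0.36, adjusted p = 3.88e-07). Within the SOX genes of early neural cells the 2 groups thus differed far more in SOX1 than in SOX2.

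Of 13 tested neuron genes, 2 were called higher (NEUROG2 and NEUROD4) and 2 lower (STMN2 and DCX). NEUROG2, which starts neuronal differentiation, was 0.0300 and 0.360 TPM in CT2.0, 2.05 and 0.726 in CT4.0 and 45.5 and 53.5 in CT4.0RA (5.41 ± 0.34, adjusted p = 3.57e-11). NEUROD4, at 0.955 and 2.52 TPM in CT4.0RA, lost its call without replicate 2 of that group (0.88). TUBB3, a neuronal tubulin, was 110 and 127 TPM in CT2.0 and 95.0 and 81.1 in CT4.0RA (-0.43 ± 0.17, adjusted p = 0.0811). STMN2 was 5.22 and 6.78 TPM in CT2.0, 59.9 and 63.2 in CT4.0 and 0.964 and 1.13 in CT4.0RA. NEUROG2 was thus higher in libraries in which STMN2 and DCX were called lower and TUBB3 was not called. Whatever the size of change, 5 of the 13 genes were higher and 2 lower at an adjusted p under 0.05 in limma.

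Genes of the dorsal to ventral axis of the neural tube were called higher in 4 of 22 cases (MSX1, ZIC1, BMP7 and ZIC4), lower in 7 and not in 11, with a median change of -0.04. MSX1, a dorsal homeobox gene, was 0.689 and 0.924 TPM in CT2.0 and 58.5 and 79.0 in CT4.0RA (5.26 ± 0.37, adjusted p = 2.75e-10), with 63.0 and 83.4 in CT4.0. NKX6-1, a ventral homeobox gene, was 6.16 and 9.60 TPM in CT2.0 and 0.172 and 0.0430 in CT4.0RA (-2.98 ± 0.40, adjusted p = 4.84e-06), with 9.53 and 7.36 in CT4.0. The ZIC family split, with ZIC1 and ZIC4 called higher and ZIC2 and ZIC5 lower. ZIC1 was 0.706 and 0.741 TPM in CT2.0 and 18.4 and 12.9 in CT4.0RA (3.25 ± 0.43, adjusted p = 3.34e-06).

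Cadherins, protocadherins, Eph receptors and ephrins, which sort cells by adhesion, were called lower in 11 of 23 cases, higher in 4 and not in 8, with a median change of -0.69. CDH6 was 2.59 and 1.22 TPM in CT2.0 and 30.1 and 36.1 in CT4.0RA (3.59 ± 0.30, adjusted p = 3.54e-09). EPHB1 was 28.7 and 24.1 TPM in CT2.0 and 1.203 and 1.705 in CT4.0RA (-3.48 ± 0.20, adjusted p = 9.77e-12). CDH2, the main cadherin of neural progenitors, was 131 and 127 TPM in CT2.0 and 99.6 and 91.8 in CT4.0RA (-0.43 ± 0.06, adjusted p = 1.58e-05), a far smaller change than that of CDH11.

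Some defining markers of other cell types were at or near 0. SOX17 of endoderm, FOXD3 of neural crest, MSGN1 of mesoderm and GATA3 of surface ectoderm were listed at 0 in all 4 libraries, and SOX10, TBX6 and NANOG were at 0.523 TPM or less. Keratins of the surface ectoderm list were not: KRT8 was 21.8 and 23.7 TPM in CT2.0 and 25.2 and 26.1 in CT4.0RA. Of the tested members, 1 of 7 mesoderm markers was called higher (MEOX1, 0.0712 and 0.109 TPM in CT2.0 and 7.01 and 6.35 in CT4.0RA) and 3 of 6 endoderm markers (EPCAM, FOXA3 and FOXA1). EPCAM, an epithelial adhesion molecule, was 2.57 and 2.50 TPM in CT2.0 and 15.4 and 15.5 in CT4.0RA (2.22 ± 0.17, adjusted p = 1.3e-09). FOXA1, at 1.16 and 1.89 TPM in CT4.0RA, lost its call without any 1 of 3 libraries. Summed endoderm markers (12 genes) were 5.40 and 5.77 TPM in CT2.0 and 22.3 and 22.5 in CT4.0RA, mesoderm markers (17) 4.67 and 11.1 against 12.2 and 10.3, neural crest markers (12) 41.2 and 42.3 against 26.3 and 26.2, and surface ectoderm markers (14) 62.5 and 65.1 against 71.4 and 71.7. Mesoderm calls numbered 2 without replicate 1 of either group. The part of these markers in the results was not tested.

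Neural crest markers had 1 call higher (TWIST1) and 2 lower (PRRX1 and SNAI2) of 12, and surface ectoderm markers 1 higher (KRT18) and 1 lower (EYA1) of 12 tested. Of 16 tested pluripotency markers, POU5F1 was called lower, at 48.4 and 30.3 TPM in CT2.0 and 12.2 and 10.3 in CT4.0RA (-1.69 ± 0.31, adjusted p = 0.000193), and L1TD1 was called higher. None of 15 proliferation genes was called in limma, while 11 had an unadjusted p under 0.05, 9 of them higher in CT4.0RA, and their changes ranged from -0.38 to 0.68. Of 18 stress and p53 target genes, 5 were called higher, 3 lower and 10 not. CHAC1, a gene of the unfolded protein response, was 1.28 and 1.17 TPM in CT2.0 and 9.75 and 15.2 in CT4.0RA (2.57 ± 0.27, adjusted p = 1.73e-07), and CT4.0 held 9.31 and 10.1.

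The levels over all 9 day 4 conditions set these genes in order. CRABP1 was 8913 ± 2151 TPM (SD, n = 2) in CT2.0, 473 ± 22.7 in CT0.8, 459 ± 38.8 in CT1.0 and 128 ± 124 in CT3.0, and from 129 to 212 in IWP2, CT0.0 and CT0.4. IWP2 is an inhibitor of WNT secretion. EGR2 was 61.9 ± 11.3 TPM in CT2.0 and at 0.476 or less in the other 8 conditions. SOX1 was 91.0 ± 9.86 TPM in CT1.0 and 80.0 ± 16.1 in CT2.0, which do not differ beyond their spread, 41.9 ± 9.60 in CT0.8 and 5.94 or less elsewhere. CYP26A1 was 287 ± 38.6 TPM in CT1.0 and then 160 ± 55.5 in CT0.8, 159 ± 92.7 in CT4.0RA and 130 ± 18.6 in CT2.0, the last 3 within their spread of one another, and 1.94 or less in the other 5 conditions. HOXB1 was 118 ± 0.341 TPM in CT4.0RA, 86.7 ± 26.1 in CT2.0, 43.3 ± 9.58 in CT3.0 and 34.9 ± 1.69 in CT4.0, and 0.111 or less in the 5 conditions of lower CT or IWP2. HOXB4 was 65.5 ± 9.09 TPM in CT4.0 and 59.9 ± 6.28 in CT3.0, within their spread, 30.4 ± 1.51 in CT4.0RA and 0.978 ± 1.23 in CT2.0. CDX1 was 253 ± 5.11 TPM in CT4.0RA, 16.3 ± 8.13 in CT4.0, 2.33 ± 1.41 in CT3.0 and 0.223 or less elsewhere. CT2.0 therefore stood apart in CRABP1 and EGR2, and CT4.0RA in CDX1 and NEUROG2.

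**Figure D4:**
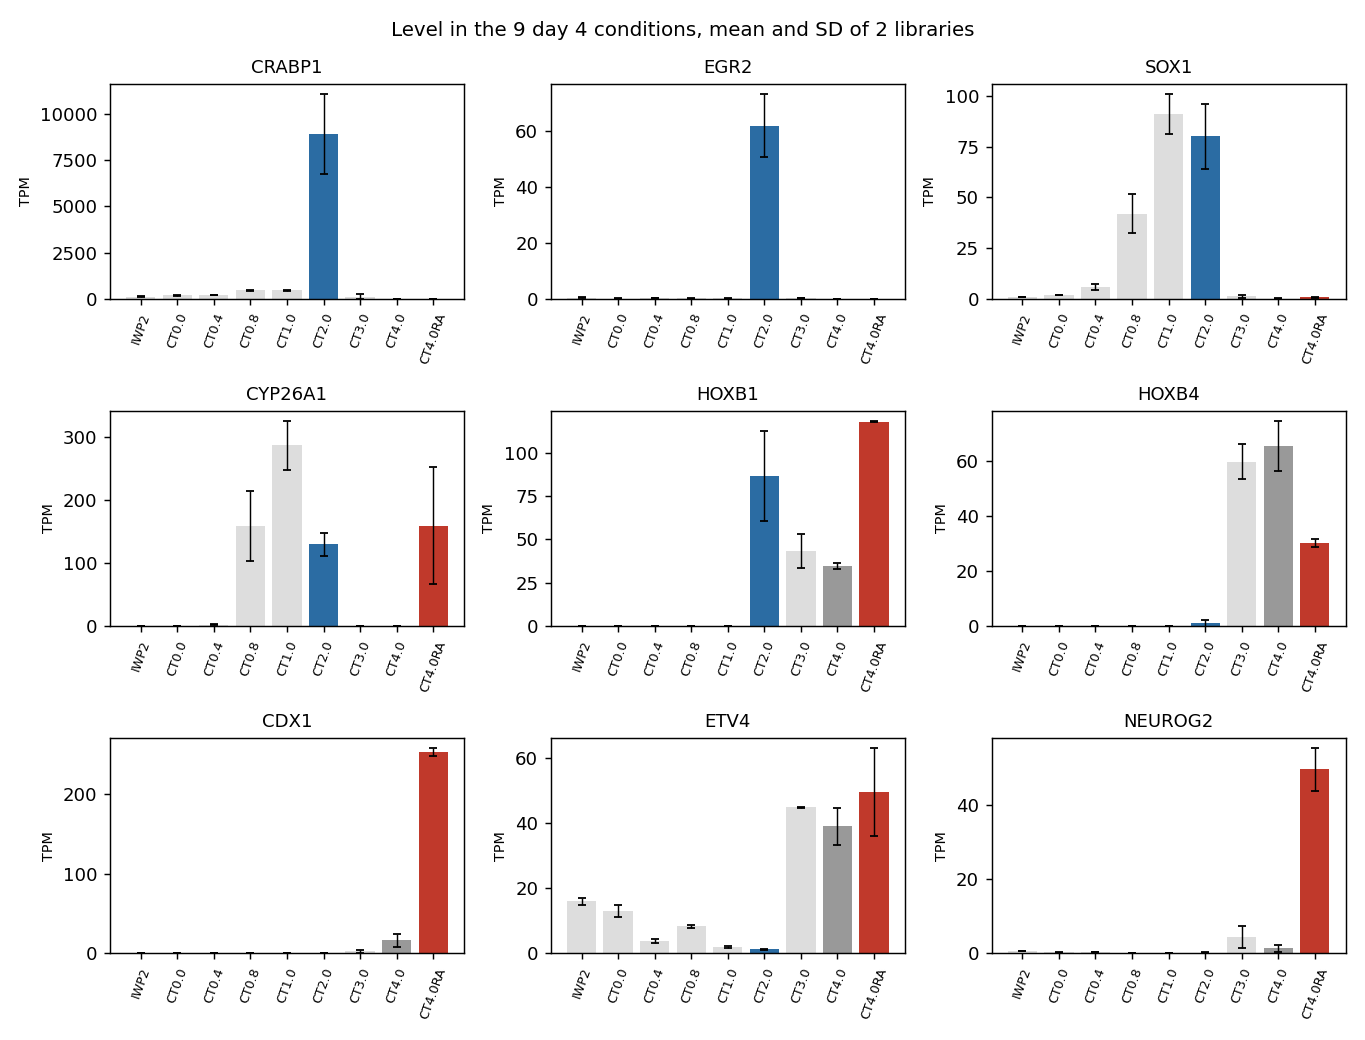
TPM of 9 genes (y axis, linear) in the 9 day 4 conditions (x axis), as the mean and SD of 2 libraries, with CT2.0 in blue, CT4.0 in dark grey and CT4.0RA in red. CRABP1 and EGR2 have their high bar in CT2.0 (8913 and 61.9 TPM), CDX1 and NEUROG2 in CT4.0RA (253 and 49.5 TPM), and CYP26A1 is high in both.

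The same 2 conditions were compared at day 8 in other libraries. There 673 genes were called higher (2.38%) and 1173 lower (4.16%), together 6.54%, so that 36.5% of calls were higher, against 57.3% with TMM scaling. Ribosomal protein genes held 27.4% and 28.3% of TPM in CT2.0 and 36.4% and 37.2% in CT4.0RA at that day, and their part in the results was not tested. Between the days, the difference was called for 527 genes in the higher direction (1.87%) and 530 in the lower (1.88%), together 3.75%. Of the 5 markers and 24 largest changes, which are 27 genes, the difference between days was called for 17. Most of these had the larger change at day 4, where they were chosen for it, so a smaller one at day 8 is no finding. CYP26A1 was not chosen in that way: at day 8 it was 12.7 and 6.08 TPM in CT2.0 and 218 and 260 in CT4.0RA (4.5999), and the difference between days was 4.43 ± 0.47 (adjusted p = 1.46e-06). Its CT2.0 level was thus lower at day 8 than at day 4 and its CT4.0RA level was not. The change of HOXD4 went from 5.31 at day 4 to 7.35 at day 8 (difference 2.04 ± 0.33, adjusted p = 0.000188).

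At day 8 all 7 HOXB genes of groups 3 to 9 were again called higher in CT4.0RA, and the day difference was called for none of them. It was 1.18 ± 0.43 for HOXB4 (adjusted p = 0.0941) and 1.22 ± 0.48 for HOXB8 (adjusted p = 0.123). For HOXA and HOXC genes the difference between days was called higher in 3 of 6 and 3 of 5. HOXA5 was 1.31 above CT2.0 at day 4 and 4.71 at day 8 (difference 3.40 ± 0.32, adjusted p = 3.12e-07), and HOXC4 was 2.18 and 3.53 (1.35 ± 0.32, adjusted p = 0.00765). HOXC8 and HOXC9 were not called on either day.

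Of the 21 FGF and feedback genes, 1 was called higher and 2 lower at day 8, and the day difference was called lower for 10 and higher for 2. ETV4, DUSP6, LGR5 and PAX6 were named for their large day 4 changes, so their smaller day 8 changes are a description. ETV4 changed by 4.49 at day 4 and 0.95 at day 8 (difference -3.55 ± 0.26, adjusted p = 8.05e-09), and DUSP6 by 3.59 and 0.27 (-3.32 ± 0.41, adjusted p = 1.01e-05). Of the canonical WNT targets, 3 were called higher and 3 lower at day 8, and the day difference was called higher for 5 and lower for 1 (LGR5). SP5 changed by -0.74 at day 4 and by 3.46 at day 8 (difference 4.20 ± 0.74, adjusted p = 0.000486). PAX6 changed by 2.49 at day 4 and 0.91 at day 8, when CT2.0 libraries held 178 and 169 TPM and CT4.0RA libraries 326 and 327 (difference -1.58 ± 0.23, adjusted p = 7.42e-05).

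**Figure D5:**
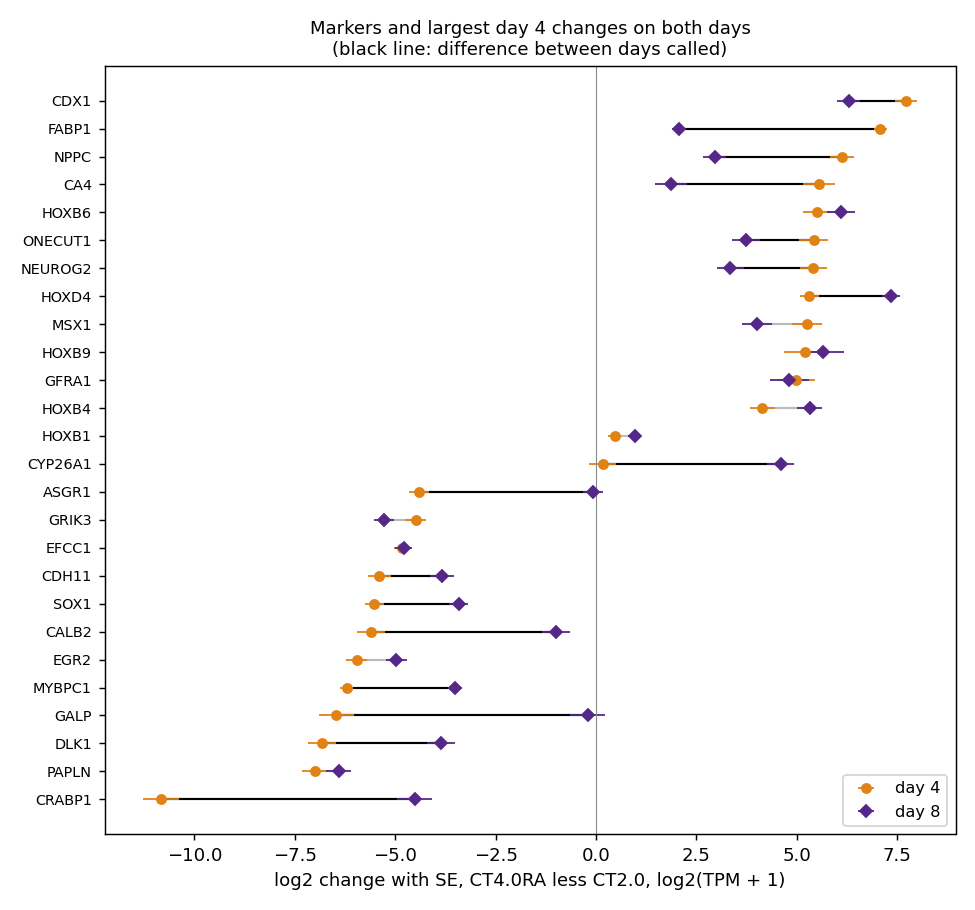
Log2 change with SE of CT4.0RA less CT2.0 at day 4 (circles) and day 8 (diamonds) for the 5 markers and the largest day 4 changes named in the text, with a black line where the difference between days was called. CYP26A1 moves from 0.17 to 4.5999 and HOXD4 from 5.31 to 7.35, while HOXB6, HOXB9, EFCC1 and PAPLN keep differences between days under 1.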

How the data were processed

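Gene levels are TPM values that the authors deposited as 1 table of 58219 genes by 38 libraries, each column of the same total. The submitters' processing notes name Salmon 0.8.2, CASAVA 1.7 and the build hg38. Strand and the sequencer of each library are not stated there. Gene names follow GENCODE, matched for 57881 IDs.

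Genes at 1 TPM or more in at least 2 libraries were kept (28221). log2(TPM + 1) was fitted in R 4.3.3 with limma 3.58.1 on 19 group means (19 residual degrees of freedom, trended variance), with Benjamini-Hochberg adjustment over all genes. The fit was tested on simulated data. TPM keeps no depth, so depth and precision per library are unknown. Alternatives were another pseudocount (0.1), other filters, scaling by a trimmed mean of log ratios (TMM), protein-coding genes alone, a replicate block, libraries left out and separate fits.

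The members and gene lists were chosen with earlier results of these data known. Some genes are not reported here. The text otherwise names the 5 markers, the 12 largest called protein-coding changes in each direction without overlap between groups, the 4 largest called and 2 highest uncalled members of each list, and HOX, retinoid and CDX genes. Other list members, among them AXIN2, SP5, LEF1, FGF8, FGF3, ETV5, IL17RD, NKX1-2, T, the Eph and ephrin genes, ZIC2, ZIC4, ZIC5 and the markers listed as low, were chosen after their values were seen.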

Additional observations from a re-analysis of the deposited data

Results flagged for a closer look

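The change between CT4.0RA and CT2.0 differed between day 8 and day 4 by the limma interaction term for the genes below, given as the day 8 log2 change less the day 4 log2 change. Of the HOX genes, the difference was 1.86 for HOXA4, 3.40 for HOXA5, 1.35 for HOXC4 and 2.04 for HOXD4. Of retinoid genes it was 4.43 for CYP26A1 and 6.31 for CRABP1. Of canonical WNT targets it was 4.20 for SP5, 1.49 for LEF1, 1.38 for AXIN2 and -3.99 for LGR5. Of FGF and ERK feedback genes it was -3.55 for ETV4, -3.32 for DUSP6, -2.35 for FGF8 and -2.08 for SPRY1. Of neural genes it was 2.11 for SOX1, -1.58 for PAX6 and -2.07 for NEUROG2. Of the other large day 4 increases it was -1.42 for CDX1, -5.02 for FABP1, -3.17 for NPPC, -3.68 for CA4 and -1.69 for ONECUT1. Of the other large day 4 decreases it was 6.26 for GALP, 4.61 for CALB2, 4.34 for ASGR1, 2.97 for DLK1, 2.69 for MYBPC1 and 1.56 for CDH11. The genes picked for the 12 largest day 4 changes in each direction, or as the largest called of a list, were chosen on day 4 values. A smaller change at day 8 is therefore given for them as a description. Of the genes picked in these ways, HOXD4 had the larger change at day 8.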

How the results depend on the processing

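The limits are the 2 libraries per group and a spread shared over 19 groups. With only the libraries of the groups compared in the fit, the calls numbered 934 for CT4.0RA against CT2.0 at day 4 (2425 with all groups), 429 for CT4.0RA against CT4.0, 309 for CT4.0 against CT2.0, 971 at day 8 and 625 for the difference between days; fewer samples entered each such fit. Leaving out 1 library gave 2089 to 2610, 1445 to 1825, 1359 to 1475, 1692 to 1971 and 827 to 1110 calls. A pseudocount of 0.1 gave 3417 calls for the day 4 comparison. Over all genes tested, the correlation of same-numbered deviations was -0.009 for the groups compared and -0.034 to 0.037 over 36 pairs of day 4 groups. A value over all genes cannot show that libraries were unpaired, since a few genes hardly move it. In CT2.0, HOXB9 was 0.444 and 5.67 TPM in replicates 1 and 2 at day 4, and 1.05 and 7.98 at day 8. HOXB8 was 0.354 and 2.15 TPM at day 4, and 0.244 and 2.90 at day 8. With the replicate block the calls numbered 2427, 1658, 1396, 1836 and 1063. Over the named genes and alternatives, 1531 values stayed on their side of the threshold, 43 lost a call and 10 gained one. No called value changed sign, while some uncalled ones did, CYP26A1 among them. TPM keeps no depth, so what depth limits cannot be given.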
